A study of Homo sapiens with 36 samples.

Results

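The CCN family is a group of secreted matricellular proteins, that is, proteins of the extracellular matrix that signal to cells rather than build the scaffold. The members described here were CCN1 (formerly CYR61), CCN2 (formerly CTGF), CCN3 (formerly NOV), CCN4 (formerly WISP1) and CCN5 (formerly WISP2), taken by gene symbol as 5 of the 60675 genes in the count table. CCN6 (formerly WISP3), the remaining family member, was read beside them for completeness. The members were chosen by fold changes of this experiment, in which CCN4 stood among the large decreases in SW1783 cells at the high extract dose. The values of the SW1783 extract libraries are therefore given as a description. Calls of the DESeq2 fit on them are listed beside the share of all genes called and are no independent evidence for the members.

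The libraries came from 2 established human lines, SW1783, from an astrocytoma, and HT29, from a colorectal adenocarcinoma, each with 18 libraries in 6 groups of 3. Batch B, as the labels name it, held vehicle (DMSO) and a water extract of the processed aconite root, Aconitum carmichaeli Debeaux (ACD), at 20, 100 and 500 µg/mL, called low, medium and high. Batch A held vehicle and 10 µM wortmannin, an inhibitor of phosphoinositide 3-kinases (PI3K) that served as the positive control. The labels give the vehicle as 0.1% DMSO. The methods describe the vehicle solution as PBS with a higher share of DMSO, in which the extract was also dissolved. Exposure lasted 24 h, and no line carried an engineered allele. The sources do not say whether replicates were separate cultures, so p-values measure the spread between these libraries, which may be technical.

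The depth was 18863863 to 26436867 counts per library in SW1783 and 15941255 to 33866644 in HT29. HT29 libraries expressed the epithelial genes EPCAM, CDH1 and KRT20 at medians of 534, 451 and 253 CPM, the count scaled to a common library total. SW1783 libraries expressed VIM, COL1A1 and FN1 at medians of 4530, 3000 and 5310 CPM, but the astrocyte markers GFAP and S100B had medians of 0.0879 and 0.0828 CPM, under the 0.113 to 0.159 CPM that 3 counts represent in these libraries. Of 4 markers of other cell types, CD3E had no count in any SW1783 library. PTPRC, a leukocyte marker, lay at 12.7 to 14.2 CPM in the SW1783 vehicle of batch B and at 12.1 to 13.2, 7.08 to 8.64 and 3.28 to 4.91 CPM with 20, 100 and 500 µg/mL of ACD. The 4 markers summed to 153 to 161 CPM in vehicle and 180 to 192 CPM at the high dose, mostly CD68, and their part in the results was not tested. Replicate 2 of HT29 at the high dose stood apart from the other libraries of its group, so the changes of the genes named as called at that dose are given with and without it, and other HT29 high-dose values include it. Vehicles of batches A and B with the same replicate number resembled each other more closely than vehicles with other numbers in each line, so the vehicles of the batches may not be independent cultures.

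CCN proteins bind integrins, heparan sulfate proteoglycans and LRP receptors at the cell surface and modulate adhesion, migration, angiogenesis, fibrosis and senescence. CCN1 and CCN2 are classical immediate-early genes and textbook targets of YAP and TAZ, coactivators that are held back by the Hippo kinases and bind DNA through TEAD factors. CCN2 is also induced by TGF-beta and by serum response factor with its MRTF cofactors, while CCN4 was first described as a Wnt-induced gene, and CCN5 lacks the C-terminal cysteine-knot domain that the other members carry.

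The sequence before CCN2 is shown because it holds the letters of the TEAD motif, and CCN2 was the only member found in the RefSeq promoter set used here. CCN2 (ENSG00000118523) lies on chromosome 6 from 131948176 to 131951372 on the minus strand of GRCh38. The 250 bases before its start, chr6:131951373-131951622 on the minus strand (RefSeq, GRCh38.p14), are printed with each copy of the TEAD motif GGAATG in capitals.
CCN2: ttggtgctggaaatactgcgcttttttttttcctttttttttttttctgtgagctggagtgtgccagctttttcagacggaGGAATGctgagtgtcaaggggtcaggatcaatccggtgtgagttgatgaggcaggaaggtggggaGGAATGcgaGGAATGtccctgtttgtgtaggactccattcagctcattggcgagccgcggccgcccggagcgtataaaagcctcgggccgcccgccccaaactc
The 3 copies begin 169, 104 and 95 bases before the start, all on the strand of the gene. Of 35116 promoters of the same length searched on both strands, 11.9% held at least 1 copy and 0.0826%, or 29, held 3 or more. The AP-1 motif TGANTCA was not found in this window, and 6.57% of all promoters held it. A match is a description of letters and not of binding.

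In vehicle, the members were far apart in level, and the lines differed in which of them were expressed. CPM per kilobase of exon, which allows genes to be compared, was 55.5 ± 3.73 (SD, n = 3) for CCN1 in SW1783 vehicle of batch B. It was 41.9 ± 1.29 for CCN2, 4.35 ± 0.191 for CCN3, 2.62 ± 0.218 for CCN4 and 0.0486 ± 0.0114 for CCN5. CCN6 lay at 0.207 ± 0.0913 CPM per kilobase. In HT29 vehicle of the same batch, it was 1.52 ± 0.146 for CCN2, 0.97 ± 0.0455 for CCN1 and 0.106 ± 0.0288 for CCN3. Without division by length, CCN1 and CCN2 were alike there, at 3.59 ± 0.168 and 3.55 ± 0.342 CPM. Their order in HT29 therefore rests on the exon lengths used, 3698 bases for CCN1 and 2338 for CCN2, which join the exons of all transcripts. In each line CCN1 and CCN2 were the leading members.

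CCN4 and CCN5 were at or near 0 in HT29. CCN4 had 0 counts in 17 of 18 HT29 libraries and 2 counts in replicate 2 of wortmannin. CCN5 had 0 counts in 16 of 18 HT29 libraries and at most 1 count. A count of 0 allows up to 0.0886 to 0.188 CPM in these libraries, counting error only, so no change of either gene was measurable in HT29. CCN3 in HT29 ranged from 3 to 11 counts, and CCN5 in SW1783 from 2 to 14 counts, too few for a reading of dose.

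In SW1783 with ACD, CCN1 was higher and CCN4 lower at the medium and high doses, CCN3 stayed within or near its vehicle range, and CCN2 followed no single direction with dose. A gene was called when its adjusted p-value was under 0.05 and its change over 1.5-fold (DESeq2 Wald test over all genes). At the high dose 2 of the 5 members were called, CCN1 higher and CCN4 lower, and 18.2% of all genes tested were called. At the medium dose the calls were again CCN1 higher and CCN4 lower, beside 3.81% of all genes. By direction, 8.66% of all genes were called higher and 9.57% lower at the high dose, and 2.34% higher and 1.48% lower at the medium dose. At the low dose DESeq2 and edgeR called 0 members, 2 having an unadjusted p-value under 0.05, beside 0.118% of all genes. Of the 5 members, 2 had a DESeq2 adjusted p-value there, and CCN1 passed that threshold but not the fold threshold. Nothing is read from these counts, because the members were chosen with results of these libraries known.

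**Figure D1:**
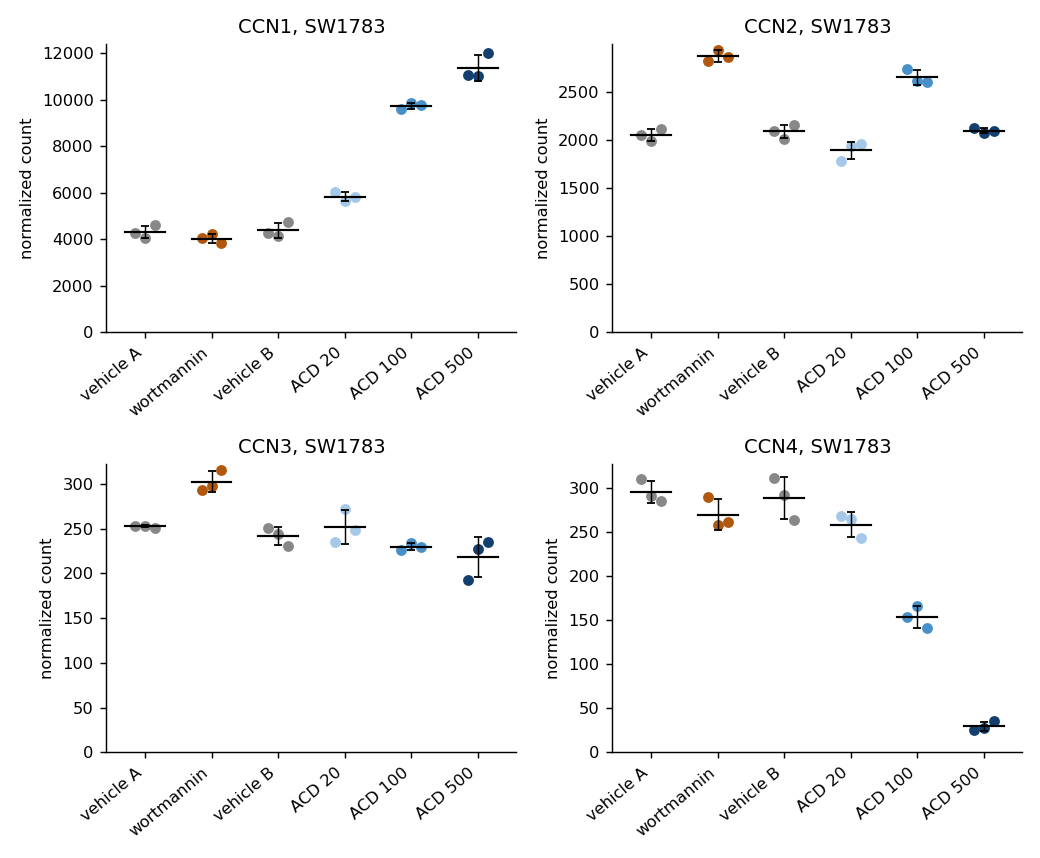
Normalized counts of CCN1, CCN2, CCN3 and CCN4 in SW1783 by group (linear axes from 0; ACD doses in µg/mL). Points are the 3 libraries of a group, the bar is their mean and the whisker the SD; CCN1 steps up and CCN4 steps down with ACD, while the wortmannin libraries of both genes overlap their vehicle.

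CCN1 (ENSG00000142871, chromosome 1, 85580761 to 85584589, plus strand), the most abundant member, promotes adhesion and angiogenesis through integrins. Its normalized counts, scaled over the 18 libraries of the line, were 4267, 4125 and 4713 in the SW1783 vehicle of batch B. With ACD they were 6019, 5629 and 5799 at the low, 9604, 9833 and 9746 at the medium, and 11070, 11020 and 11980 with the high dose. The 4 groups did not overlap, and each dose lay above the one before it. The log2 fold changes against vehicle were 0.41 ± 0.04 (SE), 1.16 ± 0.04 and 1.38 ± 0.04 at the low, medium and high dose, or 1.33-, 2.23- and 2.6-fold. The step from medium to high was 0.22 ± 0.04 on the log2 scale, smaller than the step from low to medium.

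CCN4 (ENSG00000104415, chromosome 8, 133191039 to 133231690, plus strand), a secreted protein linked to Wnt signalling and to fibroblast activation, went the other way. Its normalized counts were 311.4, 292 and 263.7 in vehicle and 268.8, 264.7 and 243.2 at the low dose, and these groups overlapped. They were 153.4, 166.6 and 141.7 at the medium dose and 25.61, 27.51 and 35.39 at the high dose, below every vehicle library. The log2 differences from vehicle were -0.16 ± 0.13, -0.91 ± 0.14 and -3.28 ± 0.20 at the low, medium and high dose. The larger step lay between medium and high, at -2.38 ± 0.20, or 5.19-fold. Between these doses CCN4 was the member called, beside 10.2% of all genes, and nothing is read from that call. On the log2 scale most of the CCN1 difference was in place at the medium dose and most of the CCN4 difference came above it. In normalized counts the CCN4 means were 289 in vehicle, 153.9 with 100 µg/mL and 29.5 with 500 µg/mL, so that the lower and the upper step were similar in counts. As a count ratio within a library, CCN1 to CCN4 was 15.2 ± 2.3 in vehicle and 22.5 ± 1.3, 63.5 ± 5.1 and 389 ± 49 in order of rising dose (n = 3 each).

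CCN2, the profibrotic member and closest in regulation to CCN1, separated from it. Its normalized counts in SW1783 were 2096, 2011 and 2152 in vehicle. They were 1784, 1933 and 1951 with 20 µg/mL, 2740, 2611 and 2602 with 100 µg/mL and 2117, 2065 and 2095 with 500 µg/mL. The medium dose lay above every other group of the batch, the low dose below every vehicle library, and the high dose inside the vehicle range. The log2 differences were -0.14 ± 0.05, 0.35 ± 0.05 and 0 ± 0.05 at the low, medium and high dose, none of them over 1.5-fold, and the high dose was -0.34 ± 0.05 below the medium dose. CCN2 overlaps the antisense gene LINC01013, and although the library kit was directional, the strand setting of the counting is not given in the sources used here, so it is unknown whether reads of the pair were kept apart.

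The ratio of CCN1 to CCN2 counts within a library, which needs no scaling between libraries, gave the separation directly. It was 2.09 ± 0.084 in SW1783 vehicle and 3.08 ± 0.25, 3.67 ± 0.14 and 5.43 ± 0.26 in order of rising dose (SD, n = 3), and none of the 4 groups overlapped. At the low and the high dose CCN1 was above vehicle with CCN2 at or below it, and at the medium dose both were above vehicle.

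**Figure D2:**
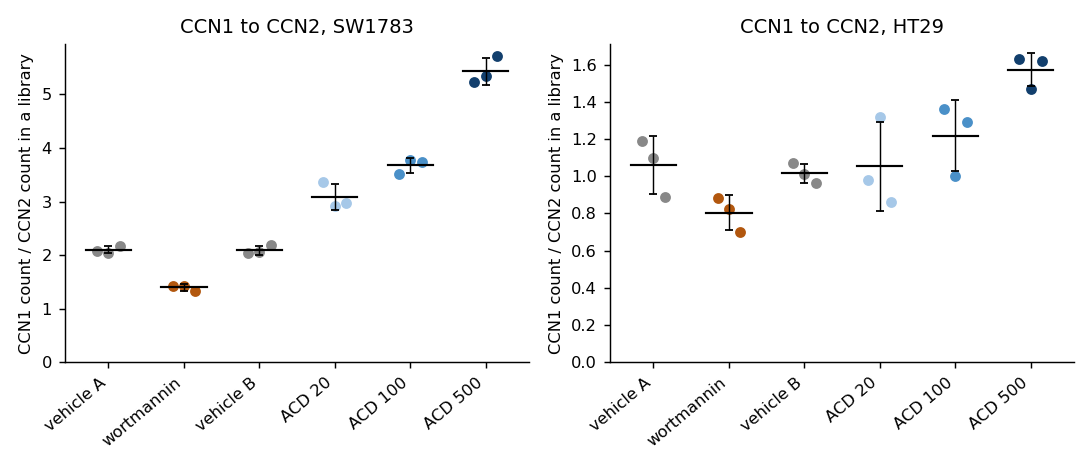
Ratio of CCN1 to CCN2 counts in each library, by group, in SW1783 (left) and HT29 (right), with the mean (bar) and SD (whisker) of 3 libraries; the 2 vertical axes differ in range. The ratio climbs from 2.09 to 5.43 with ACD in SW1783 and from 1.02 to 1.57 in HT29, and is lower with wortmannin in both lines.

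CCN3 (ENSG00000136999, chromosome 8, 119416446 to 119424434, plus strand), a member often described as growth restraining, had normalized counts of 251.1, 244.1 and 230.9 in SW1783 vehicle. With ACD they were 234.5, 272.2 and 248.7 (low), 226.4, 234.2 and 228.9 (medium), and 192.7, 226.7 and 234.9 (high). All doses overlapped vehicle, with log2 differences between -0.15 ± 0.12 at the high and 0.06 ± 0.12 at the low dose. CCN3 overlaps 2 antisense lncRNA genes. CCN5 (ENSG00000064205, chromosome 20, 44714844 to 44728509, plus strand) had 2, 4 and 3 counts at the high dose and 4, 5 and 6 in vehicle, and overlaps the antisense gene KCNK15-AS1.

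CCN6 (ENSG00000112761, chromosome 6, 112054075 to 112069686, plus strand), which is no member of the list, was low in SW1783 but higher at the medium and high doses of ACD. It had 8.03, 5 and 11.06 counts in vehicle, 11.1, 4 and 12.05 at the low dose, which overlapped vehicle, 14, 27.05 and 20.08 at the medium dose and 24.03, 39.23 and 32.07 at the high dose. The high dose lay above every vehicle library, at a log2 difference of 1.98 ± 0.49.

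The share of counts from mitochondrial ribosomal RNA moved with the extract. It was 0.932% in SW1783 vehicle and 3.14%, 7.83% and 5.93% with 20, 100 and 500 µg/mL of ACD. Dividing by the library total instead of the size factors lowered the CCN1 log2 ratio at the medium dose from 1.16 to 1.04 and that of CCN2 from 0.35 to 0.24, and moved CCN2 at the high dose from 0 to -0.11. The part of this RNA in the results was not tested.

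To see whether the PI3K inhibitor acted on the same members, wortmannin was compared with the vehicle of batch A, in libraries that hold no ACD. DESeq2 and edgeR called 0 of the members in SW1783, though 3 had an unadjusted p-value under 0.05, beside 2.72% of all genes. Of the 4 members with an adjusted p-value, CCN2 differed most. Its normalized counts were 2818, 2938 and 2862 with wortmannin against 2054, 1990 and 2116 in vehicle, with every treated library above every vehicle library. The fold was 1.4 (95% interval 1.32 to 1.48, DESeq2 adjusted p = 3.22e-30), under the 1.5-fold of the call rule, and without that fold threshold 33.9% of all genes passed.

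CCN1, CCN3 and CCN4 differed less with wortmannin in SW1783. CCN1 had 4029, 4196 and 3811 against 4276, 4066 and 4590 normalized counts, groups that overlapped, with a log2 difference of -0.11 ± 0.04 (DESeq2 adjusted p = 0.0354). CCN3 had 293.5, 297.7 and 315.8 against 253.3, 252.7 and 251.2, without overlap, but its log2 difference of 0.26 ± 0.11 did not pass (DESeq2 adjusted p = 0.0565). CCN4 had 290.1, 258.2 and 261.4 against 310.6, 290.9 and 286, with a log2 difference of -0.14 ± 0.11 (DESeq2 adjusted p = 0.378). CCN5, at few counts, differed by 0.55 ± 0.73 and had no adjusted p-value. The CCN1 to CCN2 ratio was 1.4 ± 0.058 with wortmannin and 2.1 ± 0.067 in its vehicle (n = 3), lower in every treated library, whereas it was higher in every ACD library than in vehicle. ACD and wortmannin were run in separate batches, and their values are set side by side without a test between them.

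**Figure D3:**
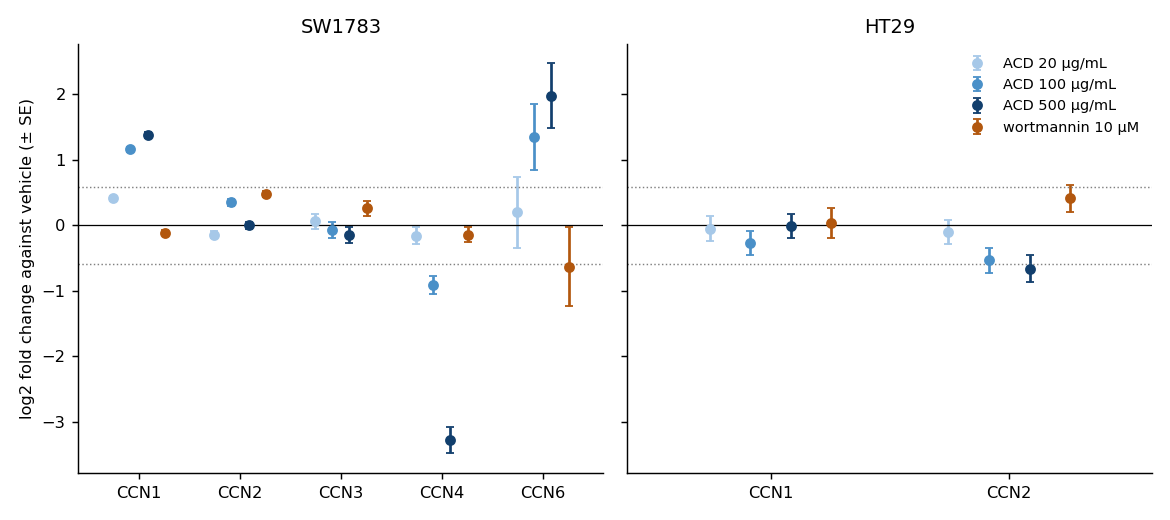
Log2 fold change against the vehicle of the same batch, with its SE, for CCN1, CCN2, CCN3, CCN4 and CCN6 in SW1783 (left) and for CCN1 and CCN2 in HT29 (right). Dotted lines mark 1.5-fold; CCN1 at 100 and 500 µg/mL lies above them and CCN4 below them in SW1783, and CCN2 at 500 µg/mL lies just below them in HT29.

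In HT29, CCN2 was lower at the high dose and CCN1 did not differ detectably. At the high dose CCN2 was the only member called, of 3 with an adjusted p-value, beside 2.92% of all genes in either direction and 1.63% lower. Its normalized counts were 45.7, 56.84 and 53.72 at the high dose against 74.86, 81.74 and 87.75 in vehicle, without overlap. CCN2 fell by 0.66 ± 0.20 on the log2 scale, or 1.58-fold (DESeq2 adjusted p = 0.0164). Without replicate 2 of the high dose the change was -0.71 (DESeq2 adjusted p = 0.0243). The call rested on few counts, 34 to 74 per treated library, and was lost when any of 4 other libraries was left out, with adjusted p-values of 0.0868 and 0.0993 without vehicle replicates 2 and 3 and of 0.119 and 0.0647 without high-dose replicates 1 and 3. It was also lost with the replicate number as a block (-0.67, DESeq2 adjusted p = 0.0531) and with a fit on the 2 groups alone (-0.65, DESeq2 adjusted p = 0.161).

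At the medium dose in HT29, DESeq2 and edgeR called 0 members, 1 of them with an unadjusted p-value under 0.05, beside 0.827% of all genes. CCN2 had 57.48, 56.1 and 56.15 normalized counts, below every vehicle library, with a log2 difference of -0.53 ± 0.19 that did not pass (DESeq2 adjusted p = 0.15). At the low dose it had 79.18, 67.2 and 82.97, overlapping vehicle (DESeq2 adjusted p = 0.966), and DESeq2 and edgeR called 0 members, and 0 had an unadjusted p-value under 0.05, beside 0.315% of all genes. The high dose did not differ detectably from the medium dose for CCN2 (-0.13 ± 0.21, DESeq2 adjusted p = 0.839). In that comparison 2 of the 5 members had a DESeq2 adjusted p-value. DESeq2 and edgeR called 0 members, 0 had an unadjusted p-value under 0.05, and 0.7% of all genes were called.

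CCN1 in HT29 had 80.03, 82.45 and 84.65 normalized counts in vehicle against 74.4, 83.59 and 87.12 with the high dose. The fold was 0.991 with a 95% interval of 0.766 to 1.28 (DESeq2 adjusted p = 0.987), an interval that leaves out the 2.6-fold measured in SW1783. Without replicate 2 of the high dose the log2 difference was -0.02 (DESeq2 adjusted p = 0.959). At the medium dose it had 78.08, 56.1 and 72.61, just below every vehicle library, with a log2 difference of -0.27 ± 0.19 that did not pass (DESeq2 adjusted p = 0.69). The counts, 50 to 120 per library over all HT29 groups, limit what could be seen. The CCN1 to CCN2 ratio was 1.02 ± 0.053 in HT29 vehicle and 1.57 ± 0.09 at the high dose (n = 3), without overlap. In SW1783 the ratio was higher with CCN1 higher and CCN2 level, and in HT29 with CCN1 level and CCN2 lower. The mitochondrial ribosomal RNA share was 1.18% in HT29 vehicle and 12% at the high dose. Dividing by the library total instead of the size factors moved the CCN1 log2 ratio at the high dose from -0.01 to -0.16. The CCN2 ratio went from -0.64 to -0.8, so how level CCN1 appears depends on the scaling. The part of this RNA in these values was not tested.

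**Figure D4:**
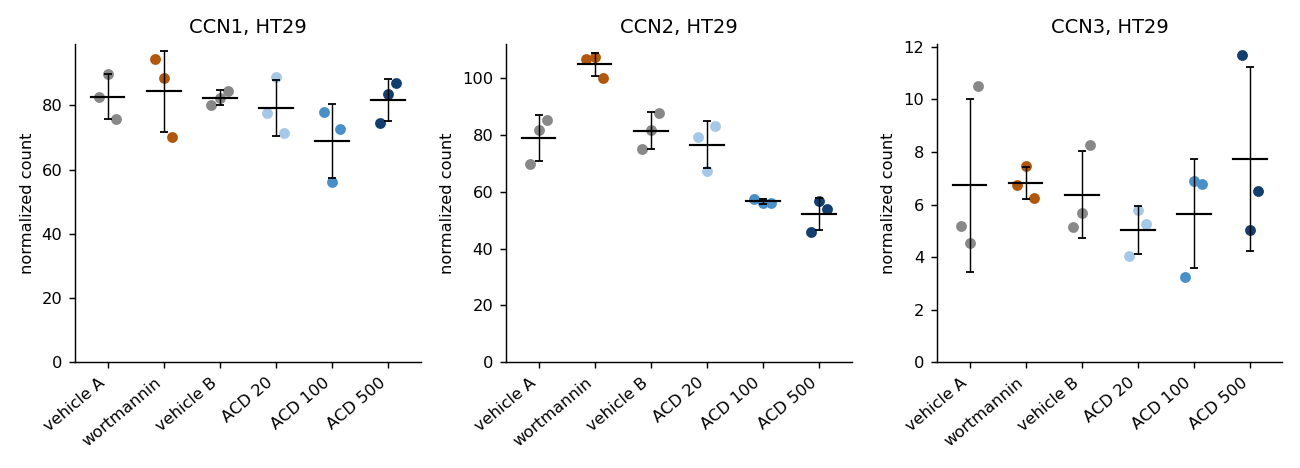
Normalized counts of CCN1, CCN2 and CCN3 in HT29 by group, with the mean (bar) and SD (whisker) of 3 libraries (linear axes from 0). CCN2 lies lower at 100 and 500 µg/mL of ACD and higher with wortmannin, CCN1 overlaps vehicle at 500 µg/mL, and CCN3 sits at 3 to 11 raw counts throughout.

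With wortmannin in HT29, CCN2 was higher, as in SW1783, but did not pass. Its normalized counts were 106.8, 107.3 and 100.1 against 69.76, 81.5 and 85.23 in vehicle, without overlap. The fold was 1.33 with a 95% interval of 0.999 to 1.76 (DESeq2 adjusted p = 0.169). CCN1 had a log2 difference of 0.03 ± 0.23 (DESeq2 adjusted p = 0.951). Of the 5 members, 2 had a DESeq2 adjusted p-value. DESeq2 and edgeR called 0 members, and 0 had an unadjusted p-value under 0.05, beside 2.65% of all genes.

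The difference between the lines was then fitted directly. At the high dose the CCN1 change was 1.34 ± 0.15 higher in SW1783 than in HT29 on the log2 scale and the CCN2 change 0.62 ± 0.16 higher, where 14.6% of all genes were called for a difference. Both are descriptions, since the SW1783 part comes from the libraries in which the family was noticed. With wortmannin the differences were -0.16 ± 0.16 for CCN1 (DESeq2 adjusted p = 0.59) and 0.06 ± 0.14 for CCN2 (DESeq2 adjusted p = 0.874), where 3.36% of all genes were called, so no difference between the lines in the wortmannin response of these genes was detected.

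Batch B vehicles were tested against batch A vehicles within each line. Vehicles sharing a replicate number were closer to each other than to the rest, and may not be separate cultures. The few calls below can therefore not serve as a measure of the noise between cultures or batches. In SW1783 the log2 differences of the members between batches lay between -0.06 and 0.02, and 0.00348% of all genes were called. In HT29, DESeq2 and edgeR called 0 genes, or 0%, with 50 genes at an unadjusted p-value under 0.05, and the CCN2 difference was 0.05 ± 0.22 (DESeq2 adjusted p = 1).

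The order of levels over all 6 SW1783 groups differed by member. Wortmannin and ACD were in separate batches, so their places relative to each other cannot be told apart from batch, in either line. CCN1 ran from high through medium and low dose to the vehicles and wortmannin, and each of the first 3 groups lay wholly above the next, while the vehicles and wortmannin overlapped. CCN2 was led by wortmannin, then the medium dose, both apart from the rest, while the high dose and the vehicles overlapped and the low dose came last. CCN3 was led by wortmannin, and the other 5 groups formed an overlapping series. CCN4 had the vehicles, wortmannin and the low dose in an overlapping group, then medium and then high, each apart. In HT29, CCN2 ran from wortmannin through the vehicles and the low dose to the medium and high doses, with gaps after wortmannin and after the low dose.

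Receptors of CCN proteins were read beside the members. Of 12 listed receptors and co-receptors, 1 was called higher at the high dose, none lower and 11 not called, beside 8.66% of all genes called higher and 9.57% lower, with a median log2 difference of 0.08 against -0.01 over all genes. ITGB1, the beta-1 integrin subunit, was the most abundant at 40700 ± 518 against 38410 ± 269 normalized counts in the batch B fit. ITGA5, the fibronectin receptor alpha subunit, differed by 0.05 ± 0.02 on the log2 scale, LRP1, a scavenging co-receptor, by -0.28 ± 0.04, and IGF2R by 0.28 ± 0.03. The called receptor, named after its value was seen, was ITGB3, the beta-3 subunit of the alpha-v beta-3 integrin to which CCN1 and CCN2 bind. It had 238.7 ± 11 normalized counts in vehicle and 485.1 ± 4.85 and 1003 ± 49.1 with 100 and 500 µg/mL (n = 3), log2 differences of 1.02 ± 0.09 and 2.07 ± 0.09. At the low dose it had 255.5 ± 8.63, a difference of 0.10 ± 0.10. With wortmannin ITGB3 differed by 0.35 ± 0.11 (DESeq2 adjusted p = 0.00793), under the fold threshold, and no receptor was called there.

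Of 17 Hippo and YAP genes, 1 was called higher and 3 lower at the high dose, beside 18.2% of all genes in either direction. None was called at the medium dose, beside 3.81% of all genes, and nothing particular to the list is read from these counts. YAP1 itself differed by 0.16 ± 0.04 on the log2 scale, TEAD1 by -0.26 ± 0.03, and the Hippo components MOB1A and NF2 by -0.29 ± 0.04 and -0.38 ± 0.05. The called genes, named after their values were seen, were the Hippo kinase STK4 (0.62 ± 0.05) and, lower, TEAD2 (-1.01 ± 0.14), the YAP competitor VGLL4 (-0.76 ± 0.07) and AMOT (-1 ± 0.13).

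Of 19 YAP and TAZ targets other than CCN1 and CCN2, 2 were called higher and 4 lower at the high dose, with a median of -0.02, beside 8.66% of all genes called higher and 9.57% lower. The most abundant were close to vehicle, with MYOF at 0.14 ± 0.03, the receptor kinase AXL at 0.35 ± 0.02, IGFBP3 at 0.05 ± 0.03 and CRIM1 at 0.27 ± 0.03. Named after their values were seen, the genes called higher were ANKRD1 (0.65 ± 0.13), another classical YAP target, and GADD45A (2.39 ± 0.06), a stress and DNA damage gene. Those called lower were CCDC80, ARHGEF17, TGFB2 and RBMS3, between -0.60 and -0.69. At the medium dose ANKRD1 (0.98 ± 0.13), F3 (0.63 ± 0.04) and GADD45A (0.92 ± 0.06) were called higher and none lower. ANKRD1 had 473.5 ± 40.8 normalized counts with the medium and 377 ± 39.1 with the high dose.

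**Figure D5:**
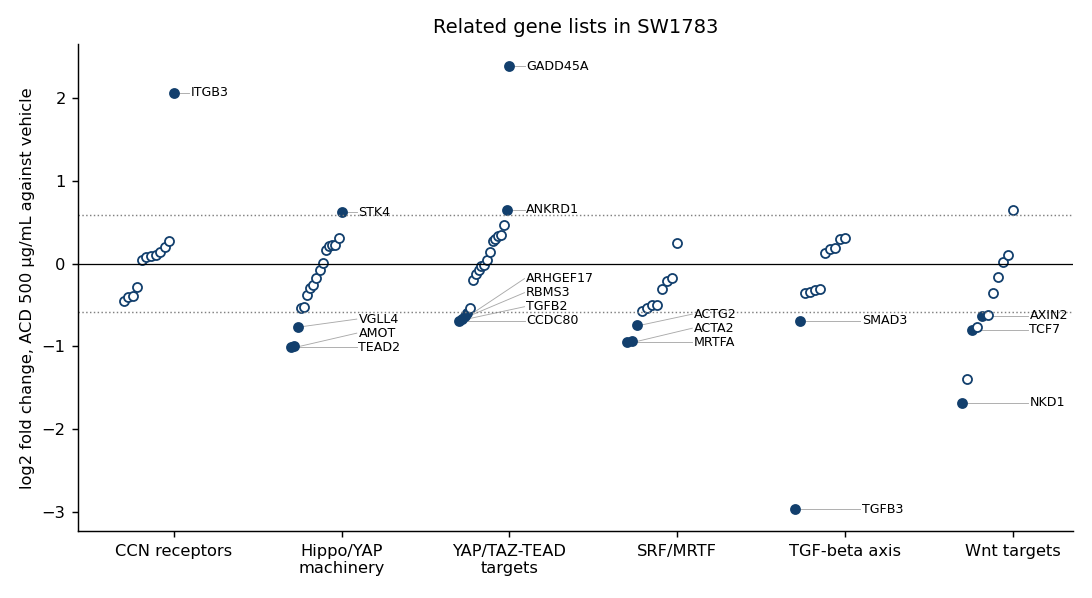
Log2 fold change at 500 µg/mL of ACD in SW1783 for the genes of 6 lists related to the CCN family, sorted within each list. Filled points with names were called, open points were not, and dotted lines mark 1.5-fold; ITGB3 (2.07) and GADD45A (2.39) lie far above and TGFB3 (-2.97) far below the rest.

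At the high dose the calls among the cytoskeletal, TGF-beta and Wnt lists were 3, 2 and 3 of 11 genes each, all lower, beside 9.57% of all genes called lower and 8.66% higher. With so few genes nothing particular to the lists is read from this. Of 11 SRF and MRTF genes, 3 were called lower, with a median of -0.50. They were MRTFA (-0.95 ± 0.05), the SRF coactivator, and the smooth-muscle actins ACTA2 (-0.94 ± 0.06) and ACTG2 (-0.74 ± 0.21), named after their values were seen. The abundant actin-binding genes TAGLN, MYL9, VCL and TPM1 differed by -0.30 ± 0.03, -0.21 ± 0.04, -0.50 ± 0.03 and -0.50 ± 0.02. No gene of this list was called at the medium dose, where the median was 0.21.

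Of 11 genes of the TGF-beta axis, 2 were called lower at the high dose, the ligand TGFB3 and the signal transducer SMAD3. TGFB3, named after its value was seen, had 417.9 ± 28.1 normalized counts in vehicle and 224.8 ± 3.3 and 53.75 ± 6.24 with 100 and 500 µg/mL (n = 3), and was the only gene of this list called at the medium dose. SMAD3 had 2857 ± 31.9 and 1772 ± 62.9 in vehicle and at the high dose. The abundant TGFB1 and TGFBI differed by -0.36 ± 0.07 and -0.31 ± 0.02. Of 11 genes of the Wnt list, 3 were called lower at the high dose, namely TCF7 (-0.80 ± 0.06), AXIN2 (-0.63 ± 0.14) and NKD1 (-1.68 ± 0.46), the last 2 named after their values were seen. NKD1 was also called lower at the medium dose (-1.10 ± 0.43). DKK1, ZNRF3 and CTNNB1 differed by 0.02 ± 0.03, -0.16 ± 0.09 and -0.36 ± 0.04. CTNNB1 is the gene of beta-catenin itself, so its RNA is no reading of Wnt target output.

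Outside the SW1783 extract libraries, the genes called are given here, where the shares of all genes called were 2.72% and 2.65% with wortmannin in SW1783 and HT29, and 2.92% and 0.827% at the high and medium dose in HT29. With wortmannin in SW1783, ACTA2 fell by 0.85 ± 0.05 (DESeq2 adjusted p = 4.36e-54) and NKD1 rose by 0.71 ± 0.26 (DESeq2 adjusted p = 0.0241). In HT29 at the high dose, WWTR1, the gene of TAZ, fell by 1.13 ± 0.32 (DESeq2 adjusted p = 0.0101) from 51.7 ± 4.48 to 22.65 ± 10.8 normalized counts (n = 3). TGFB3 fell by 1.49 ± 0.48 (DESeq2 adjusted p = 0.0303), from 27.21 ± 9.69 to 9.565 ± 0.772 normalized counts, so this call rests on few counts. The Wnt antagonist DKK1 fell by 0.83 ± 0.19 (DESeq2 adjusted p = 0.000405). Without replicate 2 of the high dose the changes of WWTR1, TGFB3 and DKK1 were -1.07, -1.53 and -1.14, all called. The other alternatives were not read for these genes. At the medium dose in HT29, DKK1 fell by 0.78 ± 0.19 (DESeq2 adjusted p = 0.00313). With wortmannin in HT29 the intestinal stem cell marker LGR5 rose by 0.67 ± 0.08 (DESeq2 adjusted p = 2.7e-13). Of these genes, DKK1 was named by rule and the others after their values were seen.

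The genes whose pattern over the 18 SW1783 libraries was most like each member are given by Pearson's r of log2 normalized counts, over 11375 genes with a mean of at least 100. The points share batch, vehicle and treatment, so r is a description. CCN1 was most like CHAC1, a glutathione-degrading enzyme of the amino acid stress response (0.991), SLC7A5, an amino acid transporter (0.989), and KCNG1, a potassium channel subunit (0.988), and 571 genes had r over 0.9. CCN4 was most like CD24 (0.995), ATP1B1, a subunit of the sodium pump (0.993), and the collagen gene COL1A2 (0.993), and 1121 genes had r over 0.9. CCN2 and CCN3 had few such partners, 4 and 7 genes. Those of CCN2 were led by ZNF281 (0.936), PDLIM5 (0.925) and H6PD (0.917), and those of CCN3 by SH3BGRL (0.937), the Hippo cofactor MOB1B (0.92) and PRKAR2B (0.915). Between members, r was -0.839 for CCN1 and CCN4 and -0.009 for CCN1 and CCN2.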

How the data were processed

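RNA sequencing of SW1783 and HT29 cells was analysed from the deposited table of RSEM expected counts, one column per library for 36 libraries. Per the labels and methods, the authors checked reads with FastQC 0.11.9, trimmed them with Trim Galore (0.6.5 in the submitters' processing notes), aligned them to GRCh38 with STAR (2.7.3a in the same notes) and counted genes with RSEM 1.3.3; the methods name other versions of Trim Galore and STAR. The library kit was directional per the labels, but the strand setting of the counting is not given in the sources used here. Of the values, 8.84% were not whole, and expected counts were rounded before testing. Gene symbols of GENCODE v44 matched 56558 of 60675 identifiers.

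Treated and same-batch vehicle libraries were compared by DESeq2 1.42.0 (R 4.3.3) with its two-sided Wald test, the test that the study names. Each fit held the 12 libraries of a line in batch B or the 6 of batch A, with Benjamini-Hochberg adjustment over all genes. The methods do not say which libraries the study fitted together. At the high dose 3546 genes were called in SW1783 and 480 in HT29, more than the paper reports at the same thresholds. The cause was not tested. A call needed an adjusted p-value under 0.05 and a log2 fold change beyond 0.585 in size. Interactions used 24 and 12 libraries. Genes at 0 in all libraries of a fit were left out. The script was tested on simulated data. The members and lists were chosen with earlier results of these data known. All members and CCN6 are named, of each list the 4 genes with the highest mean in SW1783 batch B, and for each member with a mean of at least 100 the 3 most similar genes; other names are said to be chosen by value, and 1 gene that the rule names is not reported here. Alternatives were TMM scaling, edgeR 4.0.16, a low-count filter (10 counts in 3 libraries), no fold threshold, other sets of libraries, each library left out, a replicate block and CPM. With 3 against 3 libraries an exact permutation test cannot go below 0.1, so none was used. Depth intervals and floors (3 counts) cover counting error only.

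Replicate numbers are shared between groups. Same-numbered vehicles of batches A and B deviated together (r of 0.23 to 0.29 in SW1783 and 0.42 to 0.77 in HT29).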

Additional observations from a re-analysis of the deposited data

Results flagged for a closer look

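Both results drawn out for a closer look are differences between the cell lines in the response to the high dose of ACD. They are descriptions, since the SW1783 part comes from the libraries in which the family was noticed. For the same difference 14.6% of all genes were called. The CCN1 change was 1.34 ± 0.15 more positive in SW1783 than in HT29 on the log2 scale, by the interaction term of the DESeq2 fit on 24 libraries. The CCN2 change was 0.62 ± 0.16 more positive in SW1783 by the same term. In SW1783 CCN1 was higher and CCN2 inside the vehicle range. In HT29 CCN1 did not differ detectably and CCN2 was lower, a call lost in 6 of 14 alternatives. The difference between the lines thus took the same sign for both genes. How level CCN2 in SW1783 and CCN1 in HT29 appear depends on the scaling. HT29 libraries held 50 to 120 counts of CCN1 and 34 to 115 of CCN2, and SW1783 libraries at least 3960 and 1736.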

How the results depend on the processing

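Of 566 alternative readings of a fold change, 551 kept their call status, 6 lost a call and 9 gained one. They covered CCN1 to CCN4 and CCN6 in SW1783 and CCN1 and CCN2 in HT29, and the other genes had too few counts. Dropping the fold threshold reused the reported fit, so it could add calls but not change a value. All gains other than those of CCN6 came from it. Among changes called in at least 1 of the fits compared, 0 reversed direction. Direction was not compared where neither fit called the gene, and such changes could differ in sign. CCN6 at the low dose in SW1783, for example, was 0.2 and ranged from -0.11 to 0.55. All 6 losses were of CCN2 at the high dose in HT29, where the number of members called went from 1 to 0 with the replicate block (-0.67, DESeq2 adjusted p = 0.0531) and with a fit on the 2 groups compared (-0.65, DESeq2 adjusted p = 0.161), and ranged from 0 to 1 with a library left out; few counts per library limit it. Apart from that count, the block changed no call of a member. Same-number correlations were -0.46 to 0.33 in HT29 at the high dose against vehicle. Between the high and medium doses they were 0.04 to 0.22 in SW1783 and 0 to 0.3 in HT29, and with wortmannin in SW1783 0.01 to 0.05. In each of these last comparisons 2 of 3 libraries were most like the one of their own number, so weak pairing is possible there. The libraries are known to share only a number. Without the fold threshold the number of members called was 1 in place of 0 for the low dose in SW1783, 3 in place of 2 for the medium dose, 3 in place of 1 for high against medium, and 2 in place of 0 for wortmannin. The difference between the lines for CCN2 at the high dose ranged from 0.54 to 0.67 with a library left out, and dropped under the fold threshold without replicate 1 of the HT29 high dose (0.54) or replicate 3 of the HT29 vehicle of batch B (0.57); that of CCN1 ranged from 1.28 to 1.42. CCN6 at the medium dose in SW1783, with no adjusted p-value in the reported fit, was called by edgeR (1.36, adjusted p = 0.00688), with the low-count filter (DESeq2 adjusted p = 0.0158) and with all 18 libraries of the line (DESeq2 adjusted p = 0.0108). Over all genes, edgeR called 809 for 537 at the medium and 30 for 11 at the low dose in SW1783, 687 for 379 with wortmannin and 18 for 50 at the low dose in HT29. The fit on 2 groups called 6 for 11 at the low dose in SW1783 and 299 for 480 at the high dose in HT29, and the replicate block 201 for 362 with wortmannin in HT29. Keeping genes at 0 in all libraries, tried after the data had been seen, changed no member call; over all genes it called 503 for 537 at the medium and 9 for 11 at the low dose in SW1783. The cause of these changes was not tested.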
